A study of Mus musculus with 15 samples.

Results

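The 50 array probes described here gave a lower signal in mouse CD4 T cells 24 h after activation than in naive cells. They are the probes of the authors' deposited log2 value table whose mean over both 24 h arrays lay at least 1 log2 unit below the mean over both naive arrays, apart from 6 probes that belong to other lists and were left out. The threshold was met by 56 of its 2191 probes, or 2.56%, and the arrays carry 2500 probes in all. The naive and 24 h arrays chose the probes, so every difference from naive cells or at 24 h is given as a value with no test, and tests are given only for comparisons between other groups. Their error term is pooled over all groups and so still holds the spread of the naive and 24 h pairs.

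The series followed microRNAs in CD4 T cells taken with magnetic beads from the spleen and lymph nodes of C57/B6 mice aged 6 to 8 weeks. Naive cells received no treatment and gave 2 arrays. Plate-bound antibodies against CD3 and CD28, which trigger the T cell receptor complex and its costimulatory receptor, activated the cells for 6, 12, 24, 42 or 65 h, with 2 arrays for each time. Cells activated for 65 h and then rested in medium with IL-2, a T cell growth factor, until day 7 gave 1 array, and such rested cells restimulated on the same antibodies for 18 h gave 2. All groups share the strain, the age range and the bead selection, which takes any cell with CD4 on its surface. Every activated, rested or restimulated group was kept in culture.

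MicroRNAs are short RNAs that are carried by Argonaute proteins and repress messenger RNAs through base pairing. CD4 T cells leave quiescence when their antigen receptor and CD28 are engaged together, and activation is known to lower the level of many mature microRNAs while it raises others. Cells taken off the antibodies and kept in IL-2 survive and return toward a resting state. Neither the deposited files nor the reference tables used here link a probe ID to a microRNA name or sequence, so the probes are called by the number in their ID (probe 733 has the ID UCSF033_000733), and neither lymphocyte nor other cell type microRNAs could be looked up.

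The level given for a probe is its scaled log2 signal. The background-subtracted intensity was averaged over the probe's spots and set relative to the array's 75th percentile, taken over 571 probes that were detected on each of the 14 arrays used. The ratio was taken to log2, with values under a floor of -7.42 raised to it. A level of 0 equals that percentile. Probes bind their targets unequally, so levels are compared between arrays, and a difference in level between probes is not read as one in RNA amount. A probe counted as detected on an array when over 50% of its spots there exceeded background clearly, by the scanner software's own flag. In bulk samples such as these, fewer cells of a type and less RNA per cell cannot be told apart.

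The arrays lay on 2 slides, and each group had 1 array on each slide except day 7, which was on slide 1 only. Between 640 and 950 probes were detected on 14 of the arrays, whose median spot brightness was 21 to 23. The first 42 h array stood apart, with a brightness of 466, 49.9% of its spots marked as non-uniform and 2146 probes detected. It was left out of the tests, and counts with it are given beside each result it changed. Nothing in the labels ties the paired arrays to separate animals or cultures, and p-values therefore reflect the spread between arrays only, which may be technical. Array number limits the precision of every value.

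All 50 probes were detected on both naive arrays. Of the 50, 33 have 7 spots on the array and 17 have 6. Their mean level in naive cells ran from -6.18 to 3.54, with a median of -1.47. The naive levels lay on both sides of the scaling percentile, with 16 of the 50 above it. Over all 932 tested probes the median naive level was -4.79, and 47 of the 50 lay above that. The list thus leans to probes with a bright signal. The rule itself favours this, because a probe near background in naive cells has little room to fall. Shares over all tested probes are taken over a mostly dimmer set.

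In the value table the 50 probes lay a median of 1.20 log2 units below naive cells at 24 h, and the median of all its probes was 0.00. These values chose the list. The largest fall was that of probe 952, at -2.01, followed by probe 478, at -1.63. Probe 952 read 7.41 and 7.47 on the naive arrays and 5.49 and 5.38 on the 24 h arrays. Probe 478 read 9.74 and 10.89 on the naive arrays and 8.40 and 8.97 at 24 h. Naive and 24 h values did not overlap for either. Of the 50 probes 9 lay at or below -1.5 and 17 lay above -1.1. Just inside the threshold were probes 854 and 1340, both at -1.004, and just outside it UCSF033_000681 at -0.99 and UCSF033_001358 at -0.98, so the list's edge cuts through a continuous range.

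On the scaled signal the 50 probes lay below naive cells at 24 h by a median of 1.11 log2 units, with a range of -2.49 to -0.78, and 35 of them were at or below -1. The median difference was -1.12 on slide 1, where all 50 were below their naive array, and -1.11 on slide 2, where 49 were. The exception was probe 1359, which was 0.58 higher at 24 h than in naive cells on slide 2. Probes 1348, 1350, 1352 and 1364, named after their values were seen, fell mainly on slide 1. Their differences were -3.02 to -1.83 on slide 1 and -0.73 to -0.57 on slide 2. The scaling removes the brightness of the array as a whole, and the median unscaled signal of the 571 probes was itself lower at 24 h than in naive cells, by 0.93 log2 units on slide 1 and 1.14 on slide 2. Its part in these values was not tested.

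Before 24 h the signal of most of the probes was already below naive, and at the later stages it lay lower still. The median difference from naive cells was -0.29 at 6 h, -0.63 at 12 h and -1.11 at 24 h. It was -1.71 on the second 42 h array, -1.66 at 65 h, -1.52 at day 7 and -1.81 after restimulation. On this scaled signal the median over all 932 tested probes moved the other way. It went from -0.04 at 6 h to 0.59 at 65 h, 0.29 at day 7 and 0.37 after restimulation. At 6 h 49 of the 50 probes were below their naive mean, at 12 h and 24 h all 50, on the 42 h array 47, at 65 h 45, at day 7 48 and after restimulation 47.

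In the value table the medians were -0.32, -0.67, -1.20, -1.67 and -1.96 for 6, 12, 24, 42 and 65 h, with -1.63 at day 7 and -2.06 after restimulation. Over the 740 tested probes of that table the median was -0.06 at 6 h, 0.07 at 65 h, and 0.06 at day 7 and after restimulation. The rise over all tested probes thus depended on the scaling. All of these differences share the naive arrays that chose the list, and the 42 h value holds both of its columns. Among the 43 probes detected on all 14 arrays, the lowest array was a restimulated one for 22, a 65 h one for 14, the day 7 one for 4, a 6 h one for 2 and the 42 h one for 1. For most of the list 24 h was thus not the lowest point of the series.

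Probe by probe, the differences from naive cells spread more widely at 65 h than at 24 h. The rule cut the list on the 24 h difference, which narrows the spread at that time. The comparison therefore cannot show whether the members parted after 24 h. At 65 h the difference from naive cells ran from -5.06 to 0.90 over the 50, with the middle 50% of probes between -2.39 and -1.09, where at 24 h the middle 50% lay between -1.41 and -0.94. At 65 h 38 of the 50 were at or below -1, at day 7 34 and after restimulation 44. Such a spread over the members was narrower early, with the middle 50% between -0.57 and -0.20 at 6 h.

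On at least 1 of the 14 arrays 7 of the probes were not detected, and for these the size of a difference depends on the floor. Probes 748 and 749 were detected on both naive arrays, at -6.07 and -6.12 for probe 748 and -6.19 and -6.17 for probe 749. They sat at the floor of -7.42 on every later array. Both were still detected on the slide 2 array at 6 h, where the value table read 4.95 and 4.86. They were in the list with value table differences of -1.06 each. Both passed the filter for testing through the naive arrays alone. They enter the counts and medians over the list with differences of 0, set by the floor, in the tested comparisons. Without these 2 probes the calls were the same in number, and the medians moved from -1.31 to -1.43 at 65 h against 6 h and by less in the other comparisons. At 65 h 6 of the 50 probes were detected on neither array, at 24 h 2, on the day 7 array 4 and after restimulation 5.

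Cells at 12 h and 6 h were compared first among the times the rule did not use. No probe of the list passed limma's test with Benjamini-Hochberg adjustment over 932 probes, and none had an unadjusted p under 0.05. Over all tested probes 0 were called (0.0% in either direction) and 24 had an unadjusted p under 0.05. With the slide as a block 0 were called as well, with 9 of the list and 62 of all probes unadjusted. The median difference over the list was -0.35, with -0.41 on slide 1 and -0.24 on slide 2, and over all tested probes 0.00. On both slides 38 of the 50 were lower at 12 h, against 30.5% of all tested probes, and in 13 both 12 h arrays lay below both 6 h arrays, against 8.37%.

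Cells at 65 h had a lower signal than cells at 6 h for 22 of the 50 probes, and a higher one for none. Over all 932 tested probes limma called 10.3% lower and 16.8% higher in this comparison. The median difference was -1.31 over the list (-1.22 on slide 1 and -1.37 on slide 2) and 0.48 over all tested probes, so the list lay further below the other probes than its own median states. In 36 of the 50 both 65 h arrays lay below both 6 h arrays, against 20.4% of all tested probes, and in 1 they lay above, against 43.0%. The median unscaled signal was itself lower at 65 h than at 6 h, by 1.02 on slide 1 and 0.85 on slide 2, and its part in the result was not tested.

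Probe 733 fell the most between 6 h and 65 h. Its level was -2.28 on both naive arrays, -2.49 and -2.56 at 6 h, -2.94 on both 12 h arrays and -3.75 and -3.84 at 24 h. It was -5.13 on the second 42 h array, -7.42 and -7.25 at 65 h, -7.16 at day 7 and -7.42 on both restimulated arrays. The groups up to 24 h did not overlap and each lay below the one before, and from 65 h on the probe was not well above background on any array. The 65 h signal was lower than that at 6 h (limma adjusted p = 4.78e-06, n = 2 arrays each), with means of -7.34 and -2.53, and the size and spread of this difference depend on the floor. The fold is therefore given on the scaled signal only, with each 65 h array at the lowest signal that any detected probe had there or at the probe's own, whichever was higher, and by this reckoning it was at least 21.0-fold. That is no bound for other ways of treating background: the value table gave a log2 difference of -3.55 and normexp background correction -1.52 (adjusted p = 0.0669, over a range from 2.46e-07 across the alternatives). The normexp setting worked from the raw median spot signal and added an offset of 50. The median spot brightness was 21 to 23. An added offset shrinks differences between dim signals, and its part in the lost call was not tested.

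Probe 800 fell next most and stayed above background throughout. Its level was 1.46 and 0.34 in naive cells, 1.10 and 0.31 at 6 h, 0.46 and 0.00 at 12 h, -0.04 and -0.96 at 24 h and -2.11 on the second 42 h array. It was -3.29 and -3.26 at 65 h, -2.25 at day 7 and -3.79 and -3.08 after restimulation. Up to 24 h the slide 1 array was the higher one in each pair and the naive, 6 h and 12 h groups overlapped, the 24 h arrays lay just below them, and all later arrays lay below all earlier ones. The difference at 65 h from 6 h was -3.98 (SE 0.50, limma adjusted p = 0.00109, n = 2 each), a 15.8-fold lower signal, with -4.36 on slide 1 and -3.60 on slide 2.

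The remaining 20 called probes fell by 1.04 to 3.22 log2 units. Probes 474 and 475 were lower by nearly the same amount, at -3.04 (SE 0.42) and -3.05 (SE 0.47), as were probes 736 and 737, at -2.01 (SE 0.47) and -2.03 (SE 0.49). These 4 are named after their values were seen, as neighbours in number. Probe 478, the second largest fall of the rule, was at -3.22 (SE 0.69, limma adjusted p = 0.0101). Its level was -1.19 and 0.06 at 6 h, -3.73 on the second 42 h array and -3.13 and -4.43 at 65 h, and on each slide it was lower at every time than at the time before up to 65 h. Probe 952, the largest fall of the rule, went from -4.47 and -4.24 at 6 h to -7.27 and -6.47 at 65 h, where it was detected on neither array, at least 5.61-fold on the scaled signal and a log2 difference of -1.70 in the value table. Probes 801 and 891, named after their values were seen, likewise passed from detected on both 6 h arrays to not detected at 65 h, at least 5.75-fold and 3.52-fold on the scaled signal, with log2 differences of -1.75 and -1.60 in the value table.

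Apart from 1 probe the direction of the calls was the same under the settings given here, while the count moved. With the slide as a block 34 of the 50 were lower and 1 higher, against 17.0% and 26.7% of all tested probes, and the 34 held all 22. The 1 higher was probe 1742, by 1.04 (limma adjusted p = 0.0376 in that fit and 0.185 without the block). With the first 42 h array in the fit 13 were lower, all among the 22, and over all 930 probes tested there 42 were lower and 43 higher. Other scalings moved the median of all tested probes from 0.48 to between -0.0038 and 0.92, and with it the split of all calls: 127 lower and 83 higher with the percentile taken over all probes, and 117 and 113 after quantile normalization, against 96 and 157. Over the list they gave 29 lower with the percentile over all probes, 27 after quantile normalization, 12 with normexp background correction and 30 in the value table, with 0 higher in each. All tested probes had 40 lower and 90 higher of 932 with normexp, and 78 and 88 of 740 in the value table.

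Rested cells at day 7, a single array assumed to vary like the other groups, had a lower signal than cells at 6 h for 9 of the 50 probes and a higher one for none. Over all tested probes 2.47% were called lower and 4.94% higher, and the medians were -1.10 over the list and 0.22 over all. Probe 733 was again the most lowered (limma adjusted p = 3.13e-05). It was not detected at day 7, and was at least 20.1-fold lower on the scaled signal. The value table gave it a log2 difference of -3.35, and with normexp it lost the call, at -1.49 (adjusted p = 0.350, the highest over the alternatives). Probe 800 was at -2.96 (SE 0.61, limma adjusted p = 0.0232). This comparison shares the 6 h arrays with the one before. With the slide as a block 24 were lower and 0 higher, against 8.48% and 8.8% of all tested probes, and with the first 42 h array in the fit 1 was, with 5 lower and 10 higher of all 930 tested there. Leaving out 1 array at a time moved the list's median difference between -1.13 and -0.93. The call of probe 800 was lost without either 6 h array, at adjusted p = 0.0915 and 0.0512, and its adjusted p ran from 0.00154 to 0.127 over all alternatives.

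Between 65 h and rested cells at day 7 no probe of the list passed limma's test, with 12 of the 50 at an unadjusted p under 0.05. Of all tested probes 0.429% were called lower and 0.0% higher, with 133 unadjusted. The list's median difference was 0.19 and that of all probes -0.07. The day 7 array lay above both 65 h arrays for 25 of the 50, against 27.5% of all tested probes, and below both for 11, against 33.0%. With the slide as a block 4 were higher, probes 474, 475, 478 and 493, and 2 lower, probes 1337 and 1340, which are named after their values were seen. All tested probes had 3.22% higher and 1.82% lower in that fit. The value table also gave 4 higher, with probe 314 in place of 478. All 740 tested probes of that table had 17 higher and 6 lower.

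Restimulated cells were compared with rested cells at day 7, though nothing in the labels ties them to the culture of the day 7 array. No probe of the list passed limma's test, 1 had an unadjusted p under 0.05, and of all 932 probes 0.0% were called in either direction, with 78 unadjusted. With the slide as a block the counts were 0 called, with 13 of the list and 146 of all tested probes unadjusted. The list's median difference was -0.44. Both restimulated arrays lay below the day 7 array for 28 of the 50, against 25.2% of all tested probes, and above it for 7, against 30.5%.

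Restimulated cells, 18 h into the second stimulation, were compared with cells 65 h into the first. The groups thus also differ in time on the antibodies, and its part in the differences was not tested. Over the list the median difference was 0.00, set by 3 probes at the floor on both sides (-0.0037 without probes 748 and 749). At 4 probes of the list the groups differed. The signal of 3 fell: probe 1340 by 1.56 log2 units (SE 0.21, limma adjusted p = 0.0248, n = 2 each), probe 1337 by 1.51 (SE 0.22, adjusted p = 0.0248) and probe 1344 by 1.50 (SE 0.25, adjusted p = 0.0267). Of all tested probes 1.39% were called lower and 0.107% higher. Probe 493 rose by 1.96 (SE 0.29, adjusted p = 0.0248), 3.88-fold, and was the only one of the 932 tested probes called higher. All 4 calls held with the slide as a block, where 3.0% of all tested probes were lower and 0.858% higher. In 8 of the 50 both restimulated arrays lay below both 65 h arrays and in 5 above them, against 14.9% and 14.1% of all tested probes. They were lost with the first 42 h array in the fit, with the percentile over all probes, with normexp, with the floor at the 1st percentile and without either 6 h array, either 24 h array or the second 65 h array, although over all 14 omissions of a single array the difference of probe 1340 stayed between -1.60 and -1.52, that of probe 1337 between -1.61 and -1.40 and that of probe 493 between 1.65 and 2.26. In the value table only 1337 and 1340 passed, no probe of 740 was called higher, and probe 493 was at 1.59 (adjusted p = 0.0620). Over its 26 alternatives probe 493 lost the call in 12, with differences from 0.92 to 2.26 and adjusted p from 0.0119 to 0.993.

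On the scaled signal the levels of probe 1340 came in 2 stages. It read -1.35 and -1.63 in naive cells, -1.56 and -1.86 at 6 h, -2.25 and -2.09 at 12 h and -2.27 and -2.47 at 24 h. It was -2.11 on the second 42 h array and -2.15 on both 65 h arrays, then -3.31 at day 7 and -3.76 and -3.67 after restimulation. From 12 h to 65 h every array lay between -2.47 and -2.09, and the day 7 and restimulated arrays lay below all others. The value table did not hold the level: it read 8.44 and 8.61 at 12 h, 8.29 and 8.08 at 24 h, and 7.88 and 7.52 at 65 h. There the difference at 65 h from 6 h was -1.21 and passed limma's test (adjusted p = 0.00229), where the scaled signal gave -0.44 and no call. Among probes 1337, 1340 and 1344, which are close in number, the lowest correlation over the 14 arrays was 0.93. Probe 1344 lacked the level stretch, with -3.01 and -2.74 at 12 h and -3.83 on the second 42 h array, and unlike the other two it was called lower at 65 h against 6 h, by 1.04.

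Probe 493 was the opposite case. It read -3.34 and -3.10 in naive cells, -3.51 and -3.28 at 6 h, -3.95 and -3.53 at 12 h and -4.26 and -4.28 at 24 h. It was -4.90 on the second 42 h array and -4.42 and -5.02 at 65 h, then -2.56 at day 7 and -2.97 and -2.56 after restimulation. The day 7 and both restimulated arrays lay above all naive arrays, which no earlier array did. In the value table the mean difference from naive cells was 0.18 at day 7 and -0.23 after restimulation, against 0.66 and 0.45 on the scaled signal, so after restimulation the side of naive on which probe 493 lay depended on the scaling. Its difference at day 7 from 65 h was 2.17 (SE 0.35, limma adjusted p = 0.0521) and missed the threshold.

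Probes 497 and 498, picked after their values were seen, also had a mean above naive cells after restimulation on the scaled signal, by 0.206 and 0.999. In the value table these differences were -0.59 and 0.30. At day 7 both lay below naive cells, unlike probe 493. Probe 498 read -2.32 and -2.42 in naive cells, -3.49 at day 7 and -2.06 and -0.68 after restimulation, and probe 497 read -2.05 and -2.13, -3.66, and -2.36 and -1.41. At 6 h the arrays of a pair lay far apart, at -4.18 and -1.98 for probe 498 and -3.67 and -1.79 for probe 497, so their differences between stages carried SEs of 0.70 to 1.01 in limma and none passed the test.

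The slides differed for many of the probes. In the fit with the slide as a block 23 of the 50 differed between slides, 9 higher and 14 lower on slide 2. Of all tested probes 31.8% differed, 13.7% higher and 18.0% lower. The median size of the slide difference was 0.58 over the list and 0.41 over all tested probes. A gap over 2 log2 units between the arrays of at least 1 group was seen for 9 of the 50, against 12.9% of all tested probes. The groups of probes described next were picked by eye for arrays of a pair that lay apart, whether by more than that or less, and carry no test.

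Probes 743 to 745 split at 6 h and 12 h. On slide 1 they read between -1.17 and 0.19 at 6 h and between -0.53 and 0.59 at 12 h, and on slide 2 between 1.71 and 2.76 and between 1.47 and 2.58. At 24 h the gap was smaller, with -0.50 to 0.68 on slide 1 and 0.15 to 1.42 on slide 2. In naive cells they read 0.90 to 2.01 on slide 1 and 1.38 to 2.65 on slide 2. On slide 1 each of these probes was thus below its own naive level by 6 h. On slide 2 each lay above it at 6 h: probe 743 at 1.84 against 1.44, probe 744 at 2.76 against 2.65 and probe 745 at 1.71 against 1.38. At 12 h on slide 2 probes 743 and 745 were still above, at 1.66 and 1.47, and probe 744 was below, at 2.58.

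Probes 804, 805 and 807 lay higher on slide 1 in most groups, with a slide difference of -1.21 to -1.44. In naive cells they read between -2.42 and -2.18 on slide 1 and between -4.25 and -4.01 on slide 2. The lowest correlation among the 3 over the 14 arrays was 0.988. Probes 1348, 1350, 1352, 1359 and 1364 showed the widest gaps. At 65 h they read between -6.60 and -4.43 on the slide 2 array and between -2.03 and -0.98 on the slide 1 array, where all 5 were above their naive level, and the lowest correlation among them was 0.905.

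Many of the probes have neighbours in number within the list. Of the 50, 29 fall in 12 runs of 2 or more consecutive numbers, the longest of 4, and 21 stand alone. For the 14 pairs of consecutive probes detected on all 14 arrays, the levels over the arrays correlated with a median Pearson r of 0.95 and a range of 0.711 to 0.999. The median was 0.57 for 775 pairs of the list over 50 numbers apart. The arrays share scaling, slide and time course, so these correlations are descriptions. Probes 474 and 475 were the most alike pair outside 735 to 737, with 2.06 and 1.63 at 6 h and -1.46 and -0.93 at 65 h for probe 474. Whether such neighbours match the same or related microRNAs was not tested, so the number of RNAs behind the 50 probes is not known. The 37 tested probes next in number to a member but outside the list lay at a median of -0.60 in the value table at 24 h against naive cells, and 31 of them were below 0. The median over the 740 tested probes of that table was -0.03. The same arrays chose the list, so these values carry no test.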

How the data were processed

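MicroRNAs were measured on 15 one-colour Agilent arrays with Cy3-labelled total RNA (50 ng per the series design), per the labels. The deposited scanner files hold a background-subtracted intensity per spot, used for the scaled signal, and the raw medians of spot and background. The spot brightness and the normexp setting used the raw medians. The software was Feature Extraction, with version 10.1.1.1 per the file headers and 10.6 in the submitters' processing notes. The authors' deposited value table holds log2 values for 2191 probes, with scale, centring and normalization not given in the sources used here, column medians of 4.38 to 4.41, and ranks that followed the scanner signal (Spearman at least 0.972) except on the first 42 h array (0.504). That table chose the 50 probes.

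From the intensities, control and outlier spots were left out, spots averaged, arrays scaled and floored at 0.583% of the 75th percentile (the 5th percentile of detected values). Probes detected on every array of a group (932) were fitted with limma 3.58.1 in R 4.3.3 (lmFit, eBayes, group as the only term, 14 arrays, 6 residual degrees of freedom), with Benjamini-Hochberg adjustment at 0.05 within each comparison. The procedure was tested on simulated data with independent noise and no slide effect, which therefore do not give its error rates for these arrays. The members, the lists and the left-out array were chosen with earlier results of these data known. Named probes are the 2 largest falls and those beside the threshold in the rule contrast, and per tested comparison the 2 largest called changes per direction that went the same way on both slides. The microRNA families and cell type markers listed for use with probe names went unused because the probes carry no names here. The naive arrays carry a source label of activated cells, and their title and treatment label were followed.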

Additional observations from a re-analysis of the deposited data

How the results depend on the processing

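No paired analysis was possible because the labels carry no replicate numbers, so the slide was used as a block instead. Counts below are probes of the list called by limma. Counts over all tested probes are given for some settings only. A count without one is not read as a result about the list. For 65 h against 6 h the count was 22, and 13 with all 15 arrays, 12 with normexp and 35 with the slide as a block. For day 7 against 6 h it was 9, and 1 with all 15 arrays or with normexp, 5 with no filter on dim probes, 24 with the slide as a block and 3 with that block and all 15 arrays. For day 7 against 65 h it was 0, and 4 in the value table, 2 with quantile normalization or the floor at the 10th percentile, 6 with the slide as a block and 1 on dropping the second 42 h array rather than the first, a setting added after the data were seen. Over all tested probes, day 7 against 65 h gave 17 higher and 6 lower of 740 in the value table. It gave 10 higher and 4 lower of 932 after quantile normalization, and 30 and 17 with the slide as a block. Day 7 against 6 h gave 5 lower and 18 higher of 932 with normexp. For restimulated cells against 65 h the list's count was 4, and 2 in the value table or with no filter. It was 0 with all 15 arrays, the percentile over all probes, normexp, the floor at the 1st percentile, or the slide block with all 15 arrays. All tested probes there had 7 lower and 0 higher of 740 in the value table. Leaving out 1 array at a time gave 15 to 23, 5 to 10, 0 to 1 and 0 to 4 in the same order, and 0 to 0 for 12 h against 6 h and for restimulated against rested cells. The single call at day 7 against 65 h came without either 12 h array, either restimulated array or the second 65 h array. The causes of these changes were not tested. The 7 named results had 180 values under the alternatives: 142 kept their side of the threshold, 38 kept their direction and lost the call, and 0 reversed. Probe 733 lost its call at 65 h against 6 h under normexp alone (-1.52, adjusted p = 0.0669, the highest of a range from 2.46e-07).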

Other observations

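The first 42 h array gave different values for the 50 probes depending on the source. In the deposited value table its column lay at a median of -1.52 from naive cells and that of the second 42 h array at -1.88, and the columns correlated at 0.96 over the 50 probes. On the scaled signal with all 15 arrays the medians were -0.56 and -1.66, with a correlation of 0.72, and all 50 probes counted as detected on the first array. The probes are not independent replicates, and which of the sources reflects the cells was not tested.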
